A study of Mus musculus with 3 samples.

Results

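Forkhead box genes encode transcription factors that share a winged-helix DNA-binding domain. Acetylation of histone H3 at lysine 27 (H3K27ac), found at active promoters and enhancers, was examined here at 39 autosomal forkhead genes of the mouse. Regions were chosen by position: every peak of the deposited H3K27ac lists within 50 kb of the body of one of these genes was taken (GRCm38). This gave 156 of 38793 peaks from pancreatic spheroids of mice that had been given caerulein and 163 of 37765 peaks from spheroids of untreated mice. Caerulein is a cholecystokinin analogue that causes acute pancreatitis. Both cultures came from wild-type C57BL/6J mice and are labelled as pancreatic epithelial cells, grown as three-dimensional spheroids. The number of animals behind a culture, their age and the time between caerulein and derivation are not given in the sources used here. With a single H3K27ac library per condition, the differences below are differences between 2 libraries; they carry no p-value.

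Many forkhead factors bind DNA as monomers. Some members of the family, the FOXA proteins first of all, can bind sites in closed chromatin and are therefore called pioneer factors. FOXA1 and FOXA2 are required for pancreas formation from the endoderm. FOXO proteins act downstream of insulin and growth factor signalling: phosphorylation by AKT keeps them out of the nucleus, and in the nucleus they activate genes of cell cycle arrest, stress resistance and metabolism. FOXM1 drives the expression of mitotic genes, and FOXP proteins are mostly repressors. FOXF, FOXC and FOXL1 are best known from mesenchyme, and FOXJ1 from cells with motile cilia.

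The lists were of similar size on the autosomes, with 37924 post-caerulein peaks covering 138.1 Mb and 36846 untreated peaks covering 132.2 Mb. Sequencing depth is unknown. All 10 epithelial and duct marker genes, among them Krt19, Krt7 and Epcam, had an end marked in both lists, where marked means a peak within 1 kb. No end of the 8 mesenchymal, 8 endocrine or 5 endothelial markers was marked in both, and 1 of 7 acinar and 2 of 6 immune markers had one. In the windows of the mesenchymal markers, the summed H3K27ac-covered length was 38.6 kb after caerulein against 23.6 kb in untreated spheroids. None of this lay over a marker's body. The Col1a1 window gave 21.2 and 17.7 kb, Pdgfrb 9.0 and 2.7 kb and Tcf21 6.5 and 1.5 kb. Of the 8 mesenchymal markers, Pdgfrb and Tcf21 were at least 1.5-fold higher after caerulein and 0 were 1.5-fold lower. For the endothelial markers the sum was 17.6 kb after caerulein against 26.9 kb in untreated spheroids. The Pecam1 window gave 16.5 and 20.9 kb of that. Tek (0 and 4.1 kb) and Cdh5 (0 and 1.9 kb) were at least 1.5-fold lower after caerulein, and Kdr (1.1 and 0 kb) was higher. The immune markers had 69.8 and 81.7 kb in the same order, with 35.5 and 36.8 kb from the Cd68 window. The Spi1 window had 6.25 and 15.2 kb, and Spi1 was the only immune marker past 1.5-fold. Epithelial and duct markers summed to 582.1 and 599.0 kb, acinar markers to 169.2 and 161.4 kb and endocrine markers to 0 and 2.0 kb. The acinar genes Ctrb1 (60.4 and 56.4 kb) and Rbpjl (58.6 and 56.0 kb) had no covered length over the body. In these lists Sox9 (11.2 and 5.1 kb) was at least 1.5-fold higher after caerulein. Cpa1 (4.3 and 7.6 kb) and Chga (0 and 2.0 kb) were at least 1.5-fold lower. A change in the share of cells and a change within cells cannot be told apart in such bulk data. The part of these cell types in the differences below was not tested.

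Promoter sequences show which forkhead genes started within H3K27ac. RefSeq promoters (GRCm38.p6, 250 bases before to 50 after a gene's start) were available for 25 of the 39 genes, with 29 promoters. Of these, 16 promoters of 12 genes were overlapped by a peak in both lists, and 13 promoters of 13 other genes were overlapped in neither. Across all autosomal protein-coding genes, 53.0% of 20085 promoters were overlapped in both. The first pair below, from FOXO genes past 1.5-fold in opposite directions, was overlapped in both lists. The capitals mark CpG dinucleotides, of which the Foxo1 promoter (chr3:52268087-52268386, plus strand) has 31 and the Foxo3 promoter (chr10:42276646-42276945, minus strand) 35. The Foxi1 promoter (chr11:34208040-34208339, minus strand), overlapped in neither list, has 6 and is shown for contrast. It is among the poorest in CpG of the 13 without a peak, which have 5 to 31.
Foxo1: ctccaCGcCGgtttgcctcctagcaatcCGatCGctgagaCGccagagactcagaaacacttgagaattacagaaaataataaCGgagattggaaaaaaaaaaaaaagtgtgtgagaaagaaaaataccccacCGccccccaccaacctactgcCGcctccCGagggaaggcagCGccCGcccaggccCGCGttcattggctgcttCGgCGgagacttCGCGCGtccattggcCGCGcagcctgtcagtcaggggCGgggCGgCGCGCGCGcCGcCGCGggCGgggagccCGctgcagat
Foxo3: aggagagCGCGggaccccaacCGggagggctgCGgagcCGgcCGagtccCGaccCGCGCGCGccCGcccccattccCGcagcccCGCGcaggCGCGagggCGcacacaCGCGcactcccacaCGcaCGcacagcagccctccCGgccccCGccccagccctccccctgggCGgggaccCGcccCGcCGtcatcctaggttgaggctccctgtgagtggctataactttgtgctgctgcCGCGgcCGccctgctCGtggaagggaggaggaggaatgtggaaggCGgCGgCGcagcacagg
Foxi1: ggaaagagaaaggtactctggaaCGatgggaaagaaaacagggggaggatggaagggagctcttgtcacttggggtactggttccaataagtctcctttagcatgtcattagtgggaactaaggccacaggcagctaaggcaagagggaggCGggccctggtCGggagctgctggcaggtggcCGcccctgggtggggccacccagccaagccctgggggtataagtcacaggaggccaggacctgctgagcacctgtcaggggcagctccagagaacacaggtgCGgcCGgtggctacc

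By median, forkhead promoters under a peak had more CpGs than those without, as among all promoters, but the ranges were not separate. Foxi3, without a peak, has 31 CpGs, and 1 Foxp1 promoter under a peak has 5. The median was 28.5 CpGs over the 16 overlapped promoters (range 5 to 59) and 12 over the 13 without a peak (range 5 to 31). Over all promoters the medians were 22 for those overlapped in both lists and 4 for those overlapped in neither. Letter strings that forkhead proteins are known to bind were searched on both strands. The first, TGTTTAC, was found in 1 forkhead promoter and in 3.04% of all promoters. TGTTTGC was found in 2 forkhead promoters and in 4.61% of all promoters. TATTTAC was found in 0 forkhead promoters and in 2.64% of all promoters. Matches may partly overlap, and with each promoter counted once 3 of 29 forkhead promoters held a match (10.3%), against 9.79% of all promoters. These were Foxa1 (chr12:57546062-57546361, minus strand), Foxj3 (chr4:119539411-119539710, plus strand) and the outermost listed promoter of Foxp1 (chr6:99520944-99521243, minus strand), shown with the match in capitals because all of them lay under H3K27ac in both lists. The AP-1 letters TGAGTCA were found on either strand in 2 forkhead promoters, those of Foxe3 and Foxn3, against 4.70% of all promoters. A match describes the sequence and not a bound site.
Foxa1: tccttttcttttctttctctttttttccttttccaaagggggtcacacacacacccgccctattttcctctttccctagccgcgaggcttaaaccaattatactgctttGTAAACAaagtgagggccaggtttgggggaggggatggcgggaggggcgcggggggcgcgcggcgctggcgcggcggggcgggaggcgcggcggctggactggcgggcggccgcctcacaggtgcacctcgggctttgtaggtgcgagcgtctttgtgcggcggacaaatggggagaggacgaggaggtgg
Foxj3: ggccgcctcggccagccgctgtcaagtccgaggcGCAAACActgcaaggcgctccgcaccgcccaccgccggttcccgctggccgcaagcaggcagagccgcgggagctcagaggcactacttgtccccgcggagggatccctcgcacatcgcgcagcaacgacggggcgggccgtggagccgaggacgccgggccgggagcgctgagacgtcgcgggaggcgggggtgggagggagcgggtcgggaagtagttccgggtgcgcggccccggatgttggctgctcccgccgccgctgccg
Foxp1: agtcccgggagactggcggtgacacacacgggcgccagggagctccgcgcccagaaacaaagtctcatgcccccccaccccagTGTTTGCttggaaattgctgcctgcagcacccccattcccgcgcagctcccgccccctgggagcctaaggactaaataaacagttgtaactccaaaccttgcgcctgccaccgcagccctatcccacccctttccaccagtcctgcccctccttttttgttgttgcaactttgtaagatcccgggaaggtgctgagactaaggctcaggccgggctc

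Forkhead genes ranged from fully acetylated to empty. A peak lay over the body of 21 genes in each list, and the same 21 genes had one in both. The body was covered over its whole length in both conditions at Foxa2, Foxj1 and Foxq1. A further 11 genes had peaks within 50 kb but none over the body, and 7 had no peak of either list: Foxb1, Foxd3, Foxd4, Foxi1, Foxi2, Foxn4 and Foxp2. Genes without any peak made up 19.5% of the 20665 autosomal protein-coding genes, and these 7 are 17.9% of the forkhead genes. An end was marked in both lists at 18 forkhead genes (46.2%), against 54.4% of all genes. Foxo6 and Foxn3 had a marked end after caerulein alone, and no forkhead gene had one in untreated spheroids alone. The peaks at these ends scored 72.03 and 54.35, against a list median of 526.37. Of all 20665 genes, 11252 had an end marked in both lists, 8734 in neither and the rest in 1 list alone. Those in 1 list alone were not counted by direction over all genes.

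Summed over the family, H3K27ac hardly differed, while single genes differed in opposite directions. The covered length added up over the 39 windows was 653.1 kb after caerulein against 651.2 kb in untreated spheroids, with shared windows counted for each gene. Foxp1 alone gave 184.6 and 210.7 kb of these sums, so the near equality depends on this 1 long gene. Over all genes the sums were 317884 and 313192 kb. Of the forkhead peaks, 24 of 156 after caerulein had no overlap in the other list (15.4%, exact 95% interval 10.1 to 22.0), and so did 28 of 163 untreated peaks (17.2%, 11.7 to 23.9). These are called post-caerulein-only and untreated-only. Over all autosomes the shares were 17.6% after caerulein and 14.2% in untreated spheroids. The intervals cover counting error over peaks only. Post-caerulein-only peaks outnumbered untreated-only ones at 9 genes (23.1%; 24.6% of all genes), and the opposite at 5 genes (12.8%; 22.0% of all genes). Both shares of forkhead genes stand near or below those of all genes. Covered length was at least 1.5-fold higher after caerulein at 3 genes, Foxo3, Foxn3 and Foxb2, where 5.85% of all genes were. It was at least 1.5-fold lower at 2 genes, Foxo1 and Foxs1, where 5.36% of all genes were. Over peaks found in both lists alone, 0 forkhead genes passed the limit in either direction. Ratios of covered length are given on a log2 scale with 1 kb added to each length, and their median was 0 over the forkhead genes and over all genes.

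**Figure D1:**
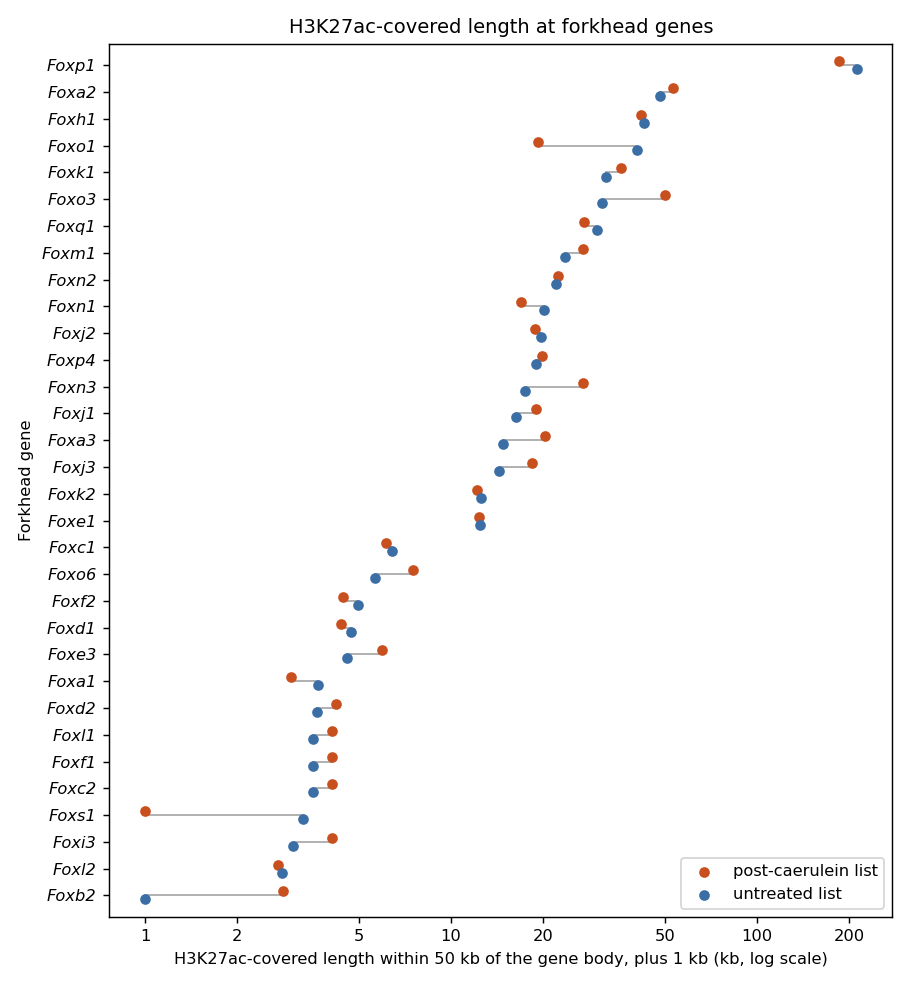
H3K27ac-covered length within 50 kb of the body, plus 1 kb, for the 32 forkhead genes with a peak in either list (kb, log axis), with post-caerulein in orange and untreated in blue and 1 library each. Most pairs of points lie close together, whereas Foxo1 (18.2 kb after caerulein, 39.6 kb untreated) and Foxo3 (48.9 and 30.1 kb) lie apart in opposite directions.

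Foxo1 and Foxo3, which encode closely related factors, differed in opposite directions. Foxo1 had 5 peaks after caerulein and 11 in untreated spheroids, and Foxo3 had 12 and 10. Around Foxo1 (chromosome 3, 52268337 to 52350109) 18.2 kb was covered after caerulein against 39.6 kb in untreated spheroids (log2 ratio -1.08). Around Foxo3 (chromosome 10, 42181845 to 42276695) 48.9 kb was covered after caerulein against 30.1 kb in untreated spheroids (log2 ratio 0.68). Of the 20665 genes, 65 lost more covered length than Foxo1 after caerulein and 109 gained more than Foxo3. The bodies are 81773 and 94851 bp long, and these ranks are not corrected for length. Both differences lay mainly inside the genes: H3K27ac covered 16.6% of the Foxo1 body after caerulein against 34.5% untreated, and 42.3% of the Foxo3 body against 21.5%. The summed covered length of the 3 FOXO genes was 73.6 kb after caerulein against 74.3 kb in untreated spheroids.

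At Foxo1, peaks found in both lists were narrower after caerulein throughout. The peak over the start of the gene, which holds the promoter printed above, was 4934 bp wide after caerulein and 5480 bp in untreated spheroids. The widest intragenic peak, with its middle 28.5 kb into the gene after caerulein, measured 5858 bp after caerulein and 9324 bp untreated. Scores pile up at 3100, where a peak stands above 85.0% of the post-caerulein list and 77.7% of the untreated list. The score of this peak exceeded 73.5% of the post-caerulein list, against 77.7% of the untreated list for its partner. The other 3 shared peaks measured 1868, 2142 and 3386 bp after caerulein and 3384, 3175 and 5512 bp in untreated spheroids. All 5 shared regions were therefore narrower after caerulein, whereas 55.9% of shared regions across the autosomes were wider. The outermost of them, 31300 bp beyond the end of the gene, stood above 42.4% of its list after caerulein and above 77.4% of its list in untreated spheroids.

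Foxo1 had 0 post-caerulein-only peaks against 6 untreated-only ones. Those 6 lay, by their middles, 10.3 kb upstream of the start, 10.6, 14.0, 53.8 and 62.2 kb into the gene, with the last 3798 bp beyond its end, and were 1329 to 2988 bp wide. Their scores of 104.28 to 448.04 were below the untreated list's median of 681.38. Only 64 of 20665 genes, Foxo1 included, had a surplus of 6 or more untreated-only peaks. Over the 5 shared peaks alone, 18.2 kb was covered after caerulein against 26.9 kb in untreated spheroids, with a log2 ratio of -0.54 that is under the 1.5-fold limit.

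At Foxo3 the pattern ran the other way, with 5 of 8 shared regions wider after caerulein. The peak over the start was 9988 bp wide after caerulein, and in untreated spheroids the same stretch held peaks of 6290 and 1623 bp separated by 53 bp. An intragenic peak of 11043 bp (42244220 to 42255262) faced untreated peaks of 3428 and 3505 bp. At 44.5 kb the widths were 6798 bp after caerulein and 4055 bp untreated, and near 73 kb they were 4504 and 1845 bp. The peak at 44.5 kb was at the pile of 3100, above 85.0% of the post-caerulein list. Its untreated partner, below the pile, stood above 62.6% of its own list. The 3 shared regions that were narrower after caerulein included both peaks more than 45 kb from the body, of 2089 and 2815 bp after caerulein and 2872 and 3369 bp in untreated spheroids.

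Foxo3 had 4 post-caerulein-only peaks, all inside the gene, against 0 untreated-only ones. The strongest of the 4 Foxo3 peaks (42219800 to 42223535) was 3736 bp wide, and its score of 543.85 was above the median of its list (526.37). It was the only one of the 24 post-caerulein-only forkhead peaks above that median, and none of the 28 untreated-only peaks exceeded the median of theirs. The same share was not computed over all autosomal 1-list peaks. The log2 ratio at Foxo3 was 0.42 over shared peaks alone (40.6 kb after caerulein, 30.1 kb untreated) and 0.37 with a window of 100 kb, both under the 1.5-fold limit. Foxo6, a FOXO gene known from the nervous system, had 3 peaks after caerulein and 2 in untreated spheroids, of which 2 and 1 were found in 1 list alone, with 6.5 kb covered after caerulein against 4.6 kb in untreated spheroids.

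**Figure D2:**
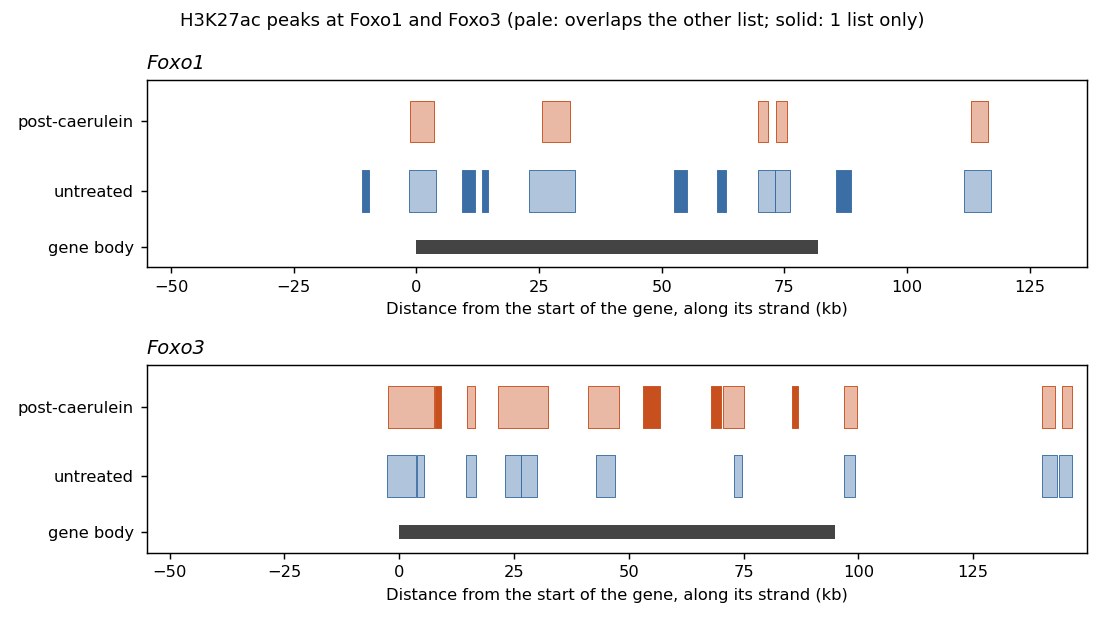
Peaks at Foxo1 and Foxo3, drawn to scale by distance from the start of the gene along its strand (kb), with the post-caerulein list above the untreated list and pale bars for peaks that overlap the other list. At Foxo1 the 6 solid bars are untreated peaks, and at Foxo3 the 4 solid bars are post-caerulein peaks, while the bar over the start is present in both conditions.

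Genes of FOXO signalling were also read, among them those that carry insulin and AKT signals to FOXO proteins. The list also holds genes outside that route, such as Ep300 and Sirt1. Of its 22 genes, 4 were at least 1.5-fold higher after caerulein and 0 were lower. They were Igf1r, a growth factor receptor gene (82.7 kb after caerulein, 50.6 kb untreated), the insulin receptor gene Insr (25.1 and 15.8 kb), Pik3r1, which encodes the regulatory subunit of PI3-kinase (39.2 and 23.4 kb), and the AKT-related kinase gene Sgk1 (41.5 and 27.2 kb). Over all genes these shares were the 5.85% and 5.36% given above, and a list of this kind was not tested against them. The other genes were within 1.5-fold, and the median log2 ratio of the list was 0.06. Known FOXO target genes gave 1 of 25 at least 1.5-fold higher, the superoxide dismutase gene Sod3 (19.6 kb after caerulein, 10.2 kb untreated), and 0 lower. Klf2, a transcription factor gene, covered 2.7 kb after caerulein and 3.9 kb untreated, and the catalase gene Cat 29.0 and 21.8 kb. The target list had a median log2 ratio of 0.11, and 23 of its 25 genes had an end marked in both lists, against 54.4% of all genes.

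The pioneer factor genes of the FOXA group differed greatly in how much H3K27ac lay within 50 kb of them. Around Foxa2 (chromosome 2, 148042877 to 148046969) 52.2 kb was covered after caerulein against 47.2 kb in untreated spheroids. Foxa3 (chromosome 7, 19013283 to 19023539) had 19.2 and 13.8 kb in the same order, and Foxa1 (chromosome 12, 57540628 to 57548029) 2.0 and 2.7 kb. Of the Foxa3 length, only 1.5 kb after caerulein and 0.8 kb untreated lay over the Foxa3 body. Foxa2 thus lay in one of the broadest domains of either list, and Foxa1 had a single peak, over part of its body.

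At Foxa2 a single peak of 46697 bp after caerulein (chromosome 2, 148002985 to 148049681) ran from the promoter across the gene and far beyond its end. Only 24 peaks of the post-caerulein list were wider. In untreated spheroids the same stretch held peaks of 27830 and 13497 bp with a gap of 4889 bp between them (148016654 to 148021542). The untreated peak over the gene was exceeded in width by 124 peaks of its list. Outside the domain, 1 untreated-only peak of 1379 bp lay 43812 bp beyond the end of the gene. The log2 ratio of covered length was 0.15, and all 3 shared regions were wider after caerulein.

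At Foxa3 the breadth differed at the 3′ side. A post-caerulein peak of 13421 bp reached the end of the gene and also touched the neighbouring genes Mypop and Irf2bp1, where untreated spheroids had peaks of 7622, 1321 and 1760 bp. The peak over the Foxa3 start, which also touched Sympk, was 4043 bp wide after caerulein and 3127 bp untreated. The log2 ratio was 0.45, under the 1.5-fold limit. Foxa1 had 1 peak in each list, of 1998 bp after caerulein and 2667 bp in untreated spheroids, which held the promoter with the match printed above and also touched the neighbouring gene Ttc6. It stood above 26.2% of the post-caerulein list and 39.8% of the untreated list.

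Endoderm factors that work with FOXA were read beside them. Of 26 listed genes, 4 were at least 1.5-fold higher after caerulein and 1 was lower, and 20 had an end marked in both lists, where the shares over all genes were 5.85%, 5.36% and 54.4%. The largest absolute ratios were at the endocrine regulator gene Nkx6-1 (5.9 kb after caerulein, 0 kb untreated), Prox1, a homeobox gene of early pancreas development (8.1 and 2.4 kb), and the duct regulator gene Sox9 (11.2 and 5.1 kb). Also past the limit were Nr5a2, a nuclear receptor gene of the acinar programme (58.4 kb after caerulein, 28.9 kb untreated), and, on the lower side, the endoderm gene Sox17 (14.9 and 24.5 kb). The median log2 ratio of the list was 0, as over all genes.

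Foxp1, which encodes a repressor and is the longest of the 39 genes, had the most peaks. Around its body (chromosome 6, 98925342 to 99522746) lay 35 peaks covering 184.6 kb after caerulein against 42 peaks covering 210.7 kb in untreated spheroids (log2 ratio -0.19). The difference of -26.1 kb was exceeded in this direction by 31 genes. It had 5 post-caerulein-only peaks against 14 untreated-only ones, and only 4 of 20665 genes, Foxp1 included, had a surplus of 9 or more untreated-only peaks. A gene of this length offers more room for peaks than most, and these ranks are not corrected for length. Over shared peaks alone, 175.9 kb was covered after caerulein and 187.7 kb untreated (log2 ratio -0.09).

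The difference at Foxp1 lay mainly in the part of the gene farthest from its start. When the body was divided into 4 equal parts, a division made after the peaks had been seen, the part from 448.1 to 597.4 kb had 44.5 kb covered after caerulein against 77.9 kb in untreated spheroids. It held 0 post-caerulein-only and 10 untreated-only peaks, with scores of 58.19 to 127.74. The part before it, from 298.7 to 448.1 kb, had 101.6 kb covered after caerulein against 97.2 kb in untreated spheroids, with 3 post-caerulein-only peaks against 0 untreated-only ones. The first part, which holds the outermost promoter, had 17.6 and 16.3 kb, and the second 11.6 and 13.4 kb, after caerulein and untreated. All 3 listed Foxp1 promoters were overlapped in both lists, including the one in the last part (99028249 to 99028548), which has 44 CpGs and lies in a broad peak of 18177 bp after caerulein and 18119 bp untreated.

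Broad peaks were a feature of Foxp1 in both conditions. Peaks of 15 kb or more numbered 5 of 156 after caerulein and 7 of 163 in untreated spheroids over all forkhead windows. On all autosomes they numbered 757 of 37924 after caerulein and 675 of 36846 in untreated spheroids. Foxp1 held 3 of the 5 and 5 of the 7, Foxa2 held 1 in each list, and the last in each list, near Foxh1, lay over other genes. The widest Foxp1 peaks were 23944 bp after caerulein and 26399 bp untreated, at the same place. One untreated peak of 24044 bp was matched after caerulein by adjoining peaks of 9869 and 13379 bp. Foxp4 had 18.9 kb covered after caerulein against 17.9 kb in untreated spheroids, and Foxp2, a gene of similar length to Foxp1, had no peak in either list.

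**Figure D3:**
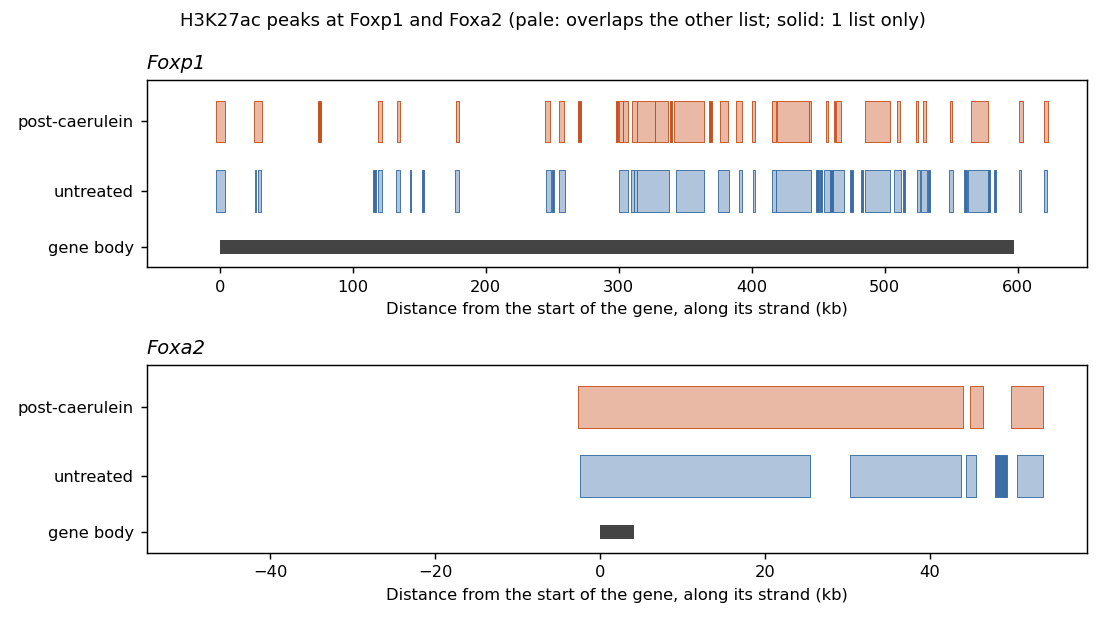
Peaks at Foxp1 and Foxa2 by distance from the start of the gene along its strand (kb), with the post-caerulein list above the untreated list, pale bars for peaks that overlap the other list and solid bars for peaks of 1 list. The untreated-only bars of Foxp1 gather beyond 448 kb (10 of 14), and Foxa2 shows 1 post-caerulein domain of 46697 bp over 2 untreated ones.

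Among the FOXN genes, Foxn3, which encodes a repressor linked to the cell cycle checkpoint, was the one past the 1.5-fold limit. Foxn3 (chromosome 12, 99190081 to 99563667) had 9 peaks covering 26.0 kb after caerulein against 5 peaks covering 16.4 kb in untreated spheroids (log2 ratio 0.63). Its 4 post-caerulein-only peaks, against 0 untreated-only ones, had scores of 54.35 to 229.34. Of these, 3 had their middles 156.7 to 217.3 kb into the gene, counted from the 5′ end of its body (99563667). The 5 shared peaks lie 171.0 to 225.0 kb from that end. The weakest post-caerulein-only peak, of 1787 bp, lay at that end. The only listed promoter of Foxn3 lies inside the body (99450025 to 99450324) and was overlapped in neither list. Of the 5 shared regions, 4 were wider after caerulein. Over shared peaks alone the log2 ratio was 0.16, and with peaks under the median score left out it was 0.48. With equal numbers of peaks in both lists it was 0.54, with lengths divided by the list total 0.57 and with 5 kb added 0.53. All of these ratios were under the limit.

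The other FOXN genes differed less. Foxn2 had 21.3 kb after caerulein and 21.1 kb untreated, with 2 peaks after caerulein and 1 untreated found in 1 list alone. Foxn1, the regulator of the thymic epithelium, had a peak of 5738 bp after caerulein and 5515 bp untreated inside the gene but none at its ends. Its window had 15.9 kb covered after caerulein against 19.1 kb in untreated spheroids, and 1 peak found after caerulein alone against 3 in untreated spheroids alone. Of its peaks, 5 after caerulein and 6 in untreated spheroids were nearer to other genes, Spag5 and Aldoc among them.

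Foxm1, Foxk1 and Foxk2 kept similar H3K27ac in both conditions. Foxm1 (chromosome 6, 128362994 to 128375886) had 6 peaks in each list, all shared, covering 26.0 kb after caerulein and 22.6 kb untreated. The peak over one end of the gene, shared with Rhno1, was 6877 bp wide after caerulein and 7921 bp untreated. The peaks that differed most in width were nearest to Tex52 and Nrip2, 12518 and 20175 bp from the body, with 5796 and 6033 bp after caerulein against 3002 and 4168 bp untreated. All 20 listed FOXM1 target genes had an end marked in both lists, and 0 passed the 1.5-fold limit in either direction. Over all genes 54.4% had an end marked in both, and 5.85% were past the limit on the higher and 5.36% on the lower side. The largest target ratios were at the topoisomerase gene Top2a (34.5 kb after caerulein, 26.3 kb untreated), the cyclin gene Ccna2 (7.4 and 5.7 kb) and the spindle checkpoint gene Bub1b (36.1 and 30.0 kb). Foxk1, which encodes a repressor of autophagy genes in muscle, had 34.9 kb after caerulein and 31.1 kb untreated, with 1 post-caerulein-only peak, and Foxk2 11.2 and 11.5 kb.

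FOXJ genes were slightly more covered after caerulein at 2 of 3 genes. Foxj3 had 17.4 kb after caerulein and 13.4 kb untreated, with 1 post-caerulein-only peak, and Foxj2 17.8 and 18.7 kb, with 1 peak of each list alone. Foxj1, the regulator of motile ciliogenesis, lay entirely under a peak of 11316 bp after caerulein and 11016 bp untreated, which it shared with the gene Rnf157. This peak was at the score pile of 3100 after caerulein, above 85.0% of that list. In untreated spheroids it stood above 70.2% of the list, where the pile stands above 77.7%. Covered length at Foxj1 was 17.9 kb after caerulein against 15.3 kb in untreated spheroids, with 1 weak post-caerulein-only peak 6877 bp from the body. Of 17 measured ciliogenesis genes that FOXJ1 is known to activate, 7 had an end marked in both lists, 0 were at least 1.5-fold higher after caerulein and 2 were lower: Dnaaf1 (11.4 kb after caerulein, 24.6 kb untreated) and Cfap53 (6.0 and 12.7 kb). Over all genes the shares were 54.4% with an end marked in both, 5.85% higher and 5.36% lower. Next in size of ratio was Dnah5 (4.4 and 3.5 kb). The median log2 ratio of the list was -0.01.

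In the forkhead cluster on chromosome 13, most H3K27ac lay around Foxq1. Foxq1 (chromosome 13, 31558170 to 31560976), a forkhead gene of epithelia, had 6 peaks in each list, all shared, covering 26.1 kb after caerulein and 29.1 kb untreated. The peak over the gene was 4403 bp wide after caerulein and 5746 bp untreated, and 4 of the 6 shared regions were narrower after caerulein. Foxf2, its neighbour, had 1 peak in each list, 45537 bp from its body after caerulein, which belonged to the Foxq1 set. Foxc1, next in the cluster, had a peak of 3360 bp over the gene after caerulein and 3812 bp untreated. On chromosome 8 the mesenchymal genes Foxf1, Foxc2 and Foxl1 shared 1 peak per list within 50 kb, of 3081 bp after caerulein and 2550 bp untreated, which was nearest to Mthfsd, and none had a peak over its body.

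The remaining genes had little H3K27ac of their own. Foxd2 had a weak peak at the gene in both lists, of 1453 bp after caerulein and 1275 bp untreated, which also fell in the window of Foxe3. Foxh1 had 40.7 kb covered after caerulein and 41.8 kb untreated, but its window lies among many genes and only 1 peak per list touched its body. For Foxd1, Foxe1, Foxi3 and Foxl2, every peak in the window was nearer to another gene, and all of these peaks were shared. Foxb2 had a single post-caerulein-only peak of 1817 bp, 24215 bp from the gene. Foxs1 had a single untreated-only peak of 2276 bp, 26256 bp away and nearer to Mylk2. The ratios at Foxb2 and Foxs1, given above among those past 1.5-fold, rest on these single peaks.

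**Figure D4:**
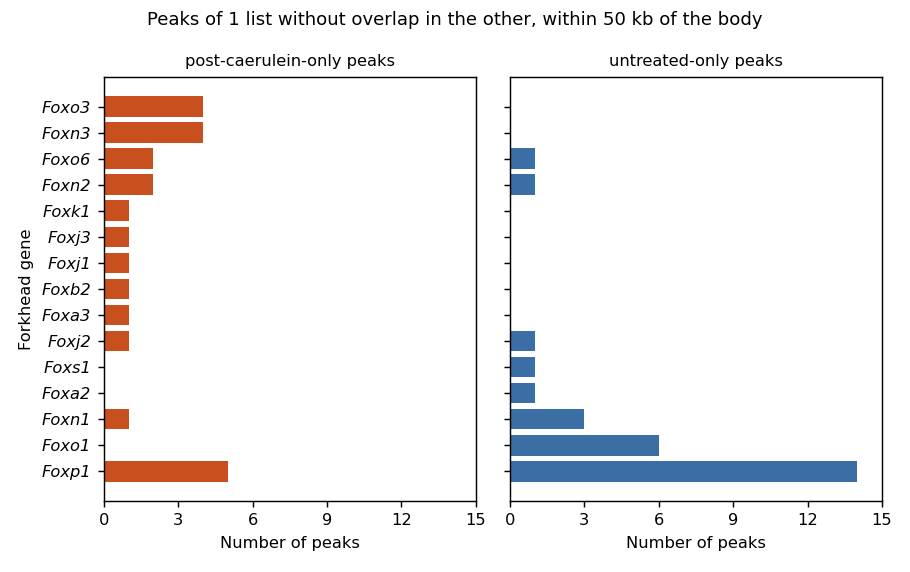
Number of post-caerulein-only peaks (left) and untreated-only peaks (right) within 50 kb of the body, for the 15 forkhead genes that have any. Foxp1 has most of both kinds (5 and 14), Foxo3 and Foxn3 have 4 post-caerulein-only peaks each and Foxo1 has 6 untreated-only peaks.

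Among the 126 regions of the forkhead windows found in both lists, 63 were wider and 63 narrower after caerulein, or 50.0% wider. Across the autosomes 55.9% of 29506 shared regions were wider after caerulein. Of the 126 regions, 14 joined more than 1 peak of a list, 6 of them at Foxp1. The autosomal number was 2977 of 29506. Median log2 ratios of width ran from -0.67 at Foxo1 to 0.30 at Foxo3 among the genes with 5 or more shared regions.

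**Figure D5:**
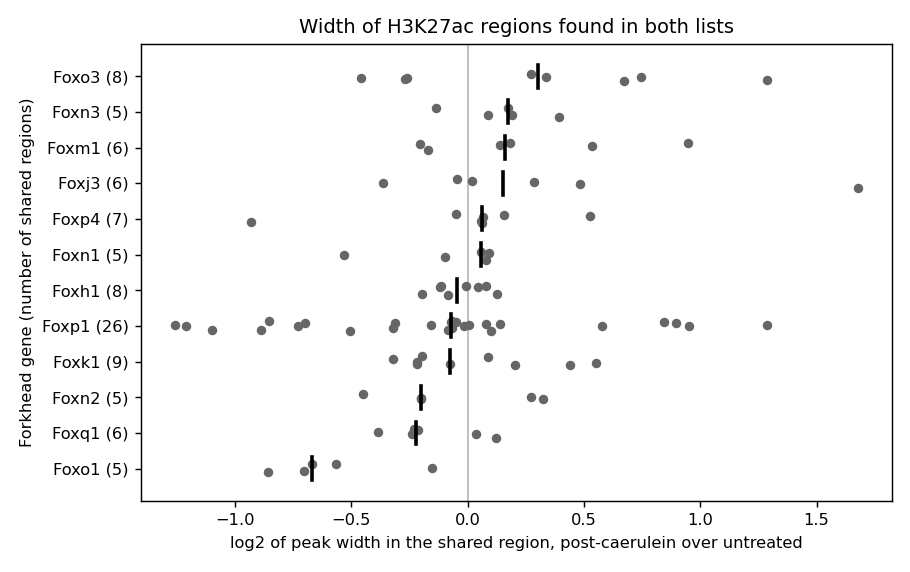
Log2 of the peak width after caerulein over that in untreated spheroids for each region found in both lists, by gene, for the 12 forkhead genes with at least 5 such regions; points are regions and black bars are medians. All 5 Foxo1 points lie below 0, whereas those of the other 11 genes lie on both sides.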

How the data were processed

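H3K27ac peaks of 2 libraries were used, 1 per condition. An input library of untreated spheroids was not analysed here. Tools listed in the submitters' processing notes are Trimmomatic 0.38 and Bowtie2 2.2.6, then SAMtools and the peak caller MACS 1.4, on GRCm38 (mm10). Each library has its own list; the caller's control and options are not given in the sources used here. A deposited list gives position, name and a score without a definition, which piles up at 3100 (5828 post-caerulein and 8440 untreated peaks at or above it) and was used only within its own list. The lists hold no counts, so depth is unknown.

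Gene bodies came from RefSeq (GRCm38.p6; 20665 autosomal protein-coding genes). Peaks overlapping by at least 1 bp counted as shared (checked against bedtools 2.31.1). Covered length was summed inside the window with a pseudocount of 1 kb. The measures were tested on simulated data. Python 3.11.15, SciPy 1.17.1. Named were any forkhead gene and, of each related list, the 3 genes with the largest absolute ratios. Sgk1, Nr5a2 and Sox17 were added after their values were seen. Ep300 and Sirt1 were named only as examples of what the FOXO signalling list holds. Cell type markers were not named by this rule, and those named are not always the most changed of their lists. Members and lists were chosen with earlier results of these data known.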

Additional observations from a re-analysis of the deposited data

How the results depend on the processing

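With 1-list peaks held to the median score of their own list, 1 post-caerulein-only and 0 untreated-only forkhead peaks were left, at 1 and 0 genes. A 10 kb window left 2 genes with more untreated-only peaks and 1 gene (Foxo1) at least 1.5-fold lower in covered length. A 100 kb window also left 1 lower gene. Its 3 higher genes were Foxc2, Foxl1 and Foxn3, without Foxo3 and Foxb2. With 5 kb added there was 1 higher gene (Foxo3) and 1 lower. With peaks under the median score left out there were 5 higher genes (Foxd2, Foxe3, Foxa3, Foxl2 and Foxo3) and 1 lower (Foxo1). With a 2-fold limit there was 1 higher gene (Foxb2). Over shared peaks alone there were 0 higher and 0 lower genes. For these differences the cause was not tested. The other 40 of 54 recomputed counts stayed within 1.5 times. Of 64 recomputed log2 ratios of 8 genes none turned round, but 12 moved by over 1.5-fold, all at Foxs1 (-4.57 to 0) and Foxb2 (0 to 4.26), whose single peaks drop out with a 10 kb window, over shared peaks alone and under the median score. Foxo1 ran from -1.14 to -0.54 and Foxo3 from 0.37 to 0.89. Counting only peaks nearest to the member, or only shared peaks, was chosen after seeing the data. No paired analysis was possible because only 1 library stands for each condition. All but 1 of the 1-list forkhead peaks scored below the median of their own list, and depth is unknown. The share of all autosomal 1-list peaks below the median was not computed. Whether forkhead windows differ from the rest in this is therefore not known.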
